A study of Caenorhabditis elegans with 8 samples.

Results

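The genes described here encode the linker histones and 2 histone variants of the nematode Caenorhabditis elegans. They are the 8 H1 genes his-24 and hil-1 to hil-7, the H2A.Z gene htz-1 and the H3.3 gene his-72. They were chosen by name, and all 10 were found by their WormBase identifiers among the 20392 genes of the count table. Transcripts were counted in intestines dissected from adults of the wild-type strain N2 (Bristol) on their first day of adulthood. Per the study's methods, the intestines of several animals were pooled for each library, and poly(A) RNA was amplified into full-length cDNA. The fed group (labelled non-starved) was collected from plates with OP50 bacteria, rinsed in M9 buffer and dissected. The fasted group (labelled starved) was washed and kept in M9 buffer without food for 12 h first. Each group has 4 libraries, which the labels call biological replicates. Lack of food, the hours in liquid and the added age cannot be told apart, and the labels give the time of 12 h to both groups. A growth protocol with auxin plates also stands in the labels, although no auxin treatment is listed for any of these samples.

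In chromatin, DNA is wrapped around core histones, and a linker histone H1 sits where the strand enters and leaves the nucleosome and helps to compact it. Core histones of the replication-dependent kind are made in S phase, usually from messages that lack a poly(A) tail. Variants such as H2A.Z and H3.3 can be placed into chromatin outside S phase by dedicated chaperones and remodelling complexes. H2A.Z is typical of nucleosomes around promoters, and H3.3 of transcribed chromatin. The study followed tagged HIS-24 and HIS-72, among other histones, to image the chromatin of intestinal nuclei in fed and fasted animals, whereas the transcripts of these genes are measured here.

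Fed libraries held 20964161 to 26372847 counts in total and fasted libraries 25310202 to 33846215. The unit RPM scales each count to a library of 1000000 counts. The floor of detection was set at 3 counts, which is 0.0886 to 0.143 RPM depending on the library. Of the counts between 2 and 10, 76.0% to 84.5% were even numbers in each library, so that most low values step by 2 reads. Over all 7379 tested genes the log2 fold change had a median of 1.23 when libraries were scaled by total counts and 0.16 with TMM factors, which assume that most genes do not change. Each change below is therefore set against that median. All 10 markers of the intestine were above the floor in every library, and their sum ranged from 11559 to 12541 RPM in fed and from 7846 to 8270 RPM in fasted libraries. Markers of most other tissues were uneven among fasted libraries. The sums for germline, muscle, pharynx, neuron, and gonadal sheath and spermatheca were higher in every fasted library than in any fed one. The 19 germline and oocyte markers summed to 116, 428, 38.2 and 39.7 RPM in fasted replicates 1 to 4, against 2.92 to 7.56 RPM in fed libraries, where mex-3, oma-1, syp-1 and daz-1 were at 0. The 10 body wall muscle markers summed to 1010, 66.4, 21.8 and 1415 RPM in the fasted libraries and to 9.48 to 13.3 RPM in the fed ones, where myo-3 and hlh-1 were at 0. The 5 pharynx markers summed to 184, 1.98, 0.766 and 354 RPM against 0.201 to 0.531 RPM, and the 12 neuron markers to 65.2, 17.5, 15.3 and 77.4 RPM against 8.65 to 13.2 RPM. The 8 hypodermis markers summed to 24.7, 36.8, 1.73 and 29.8 RPM against 0.764 to 3.39 RPM. The 5 markers of the gonadal sheath and spermatheca summed to 59.7, 85.5, 64.9 and 84.8 RPM in fasted and to 19.6 to 30.3 RPM in fed libraries. Sperm markers did not exceed 0.788 RPM in any library. In such bulk samples a change in the number of cells of a type and a change in the RNA per cell cannot be told apart.

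Of the 8 linker histone genes, his-24, hil-1, hil-2 and hil-3 were higher in every fasted library than in any fed one, while hil-4 and hil-5 were high in 2 fasted libraries. Together the 8 genes, called or not, summed to 4.57 ± 0.402 RPM in fed and 66.3 ± 25.4 RPM in fasted libraries (SD, n = 4). In fasted replicate 2, which had the highest germline marker sum (428 RPM), hil-4 and hil-5 gave 38.4 and 22.8 of the 99.2 RPM. Of the 10 genes 9 passed the filter on low counts, and 5 were called higher in fasted intestines (his-24, hil-1, hil-2, hil-3 and hil-5), at a Benjamini-Hochberg false discovery rate (FDR) under 0.01 in edgeR's quasi-likelihood test and a fold change over 1.5. That is 55.6% of those tested, beside 52.9% of all tested genes, so that the share of the 10 genes called higher was near the background. None was called lower, by edgeR or by DESeq2, beside 9.97% of all tested genes, and by total counts 0 fell at an unadjusted P under 0.05 in either tool. With TMM factors in edgeR, or the size factors of DESeq2, 1 did (htz-1). With TMM factors 3 genes were called higher (his-24, hil-1 and hil-3), beside a background of 19.6% higher and 21.5% lower. The libraries of the groups did not overlap for his-24, hil-1, hil-2 and hil-3, all higher in fasted, whereas 58.5% of all tested genes were separated in this direction and 11.1% in the other. The median log2 fold change of the 9 tested genes was 4.04 by total counts and 2.94 with TMM factors, and 8 of them lay above the median of all genes under both scalings. The gene below it was htz-1. A gene can pass the filter through 1 group alone. hil-1, hil-3, hil-5 and hil-7 were low in fed libraries and passed mainly through their fasted counts. Such genes enter the test where they are high in fasted libraries, which favours calls in that direction. The same holds for genes of the lists below that were low in fed libraries.

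**Figure D1:**
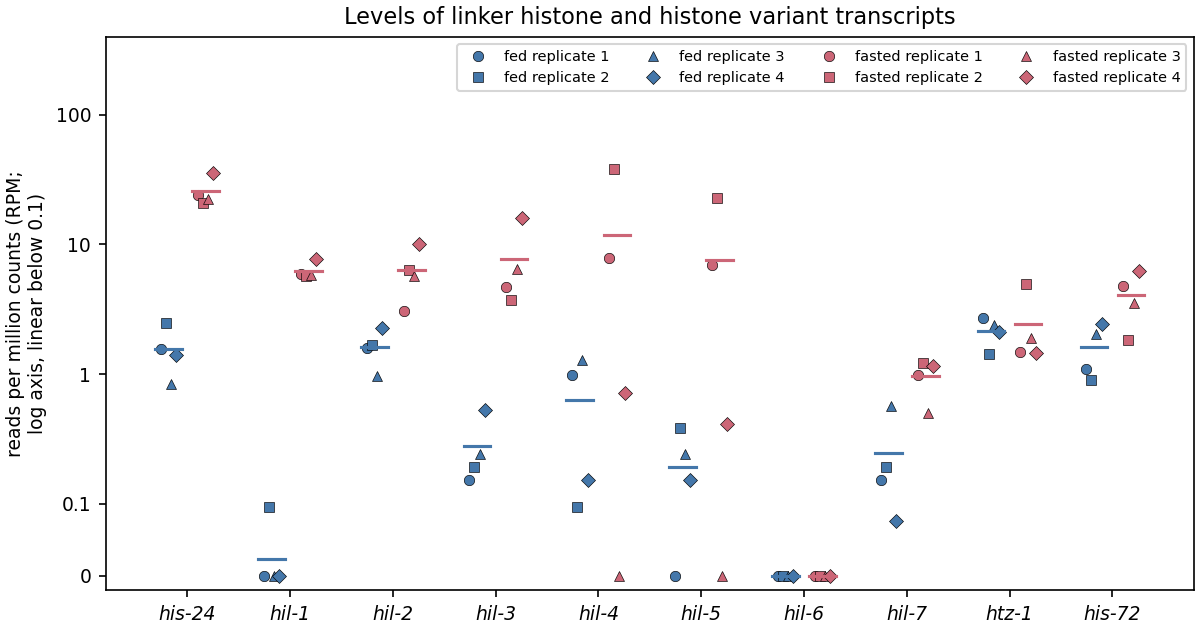
Level of each of the 10 genes in every library, in RPM on a log axis that is linear below 0.1, with fed libraries in blue, fasted libraries in red, a marker shape for each replicate number and a bar at each group mean. The fasted libraries of his-24 lie between 20.98 and 35.9 RPM, all above the fed ones, while those of hil-4 run from 0 to 38.4 RPM.

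his-24 (WBGene00001898; chromosome X, 14490094 to 14491119 on the plus strand in WBcel235, protein-coding) encodes H1.1, a linker histone of most tissues that is known for its part in silencing in the germline. Its level was 1.56, 2.48, 0.845 and 1.40 RPM in fed replicates 1 to 4 and 23.9, 20.98, 22.3 and 35.9 RPM in the fasted ones. The lowest fasted library thus lay well above the highest fed one. The mean rose 16.4-fold, from 1.57 ± 0.679 to 25.8 ± 6.83 RPM (SD, n = 4), a log2 difference of 4.04 with SE 0.326 (edgeR FDR 1.89e-06). This was 2.81 above the median of all genes, and with TMM factors the change was 2.94 (SE 0.333, edgeR FDR 2.52e-05). Without the fasted libraries 1 and 4, which held the most muscle transcripts, it was 3.79 (SE 0.348, edgeR FDR 3.48e-05). Without fasted libraries 1 and 2, which held the most germline transcripts, it was 4.22 (SE 0.357, edgeR FDR 1.08e-05). The fasted libraries kept in these fits still had higher muscle and germline marker sums than any fed library. his-24 was highest in fasted replicate 4, which also had the highest muscle, pharynx and neuron sums. The part of these tissues in the level of his-24 was not tested. The later annotation places the noncoding genes M163.16 and M163.19 on the opposite strand over exons of his-24. They are not among the counted genes, and their reads cannot be told from those of his-24 if the library did not keep the strand.

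hil-1 (WBGene00001852; chromosome V, 14949777 to 14952799, plus strand), an H1-like gene, went from the floor to between 5.73 and 7.74 RPM in the fasted libraries. In fed libraries it was at 0 apart from 2 counts in replicate 2 (0.0954 RPM). The fasted libraries stood at 5.88, 5.73, 5.80 and 7.74 RPM, a mean of 6.29 ± 0.972 RPM (SD, n = 4). By total counts, against a floor of 3 counts in each fed library, this was at least 51.2-fold higher. The bound was not computed with TMM factors, under which the fitted fold change was smaller. edgeR gave an FDR of 8.40e-07 by total counts and 3.57e-06 with TMM factors, and its fitted log2 fold change of 7.97 is no bound, because the fed group is at the floor. Fasted replicate 3 had the lowest muscle, pharynx and germline marker sums of the fasted libraries, and its level of hil-1 lay between those of replicates 1 and 2. Replicate 4 had the highest level of hil-1 and also the highest muscle, pharynx and neuron sums, and replicate 1 came next in each. The muscle, pharynx, germline, neuron, and gonadal sheath and spermatheca sums were, like hil-1, higher in every fasted library than in any fed one. The part of these tissues in the level of hil-1 was not tested.

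hil-3 and hil-2, 2 further H1-like genes, rose in every fasted library but by unequal amounts. hil-3 (WBGene00001854; chromosome X, 8159169 to 8160084, plus strand) was at 0.152, 0.191, 0.241 and 0.531 RPM in fed and at 4.66, 3.75, 6.46 and 15.9 RPM in fasted libraries. Fasted replicate 4 stood above the other fasted libraries, and the groups did not overlap. The mean was 27.6-fold higher (log2 fold change 4.75, SE 0.575, edgeR FDR 3.28e-05, or 3.68 with TMM factors, edgeR FDR 2.28e-04). It was 4.12 without fasted replicate 4 (edgeR FDR 2.47e-05). hil-2 (WBGene00001853; chromosome IV, 6294240 to 6295217, plus strand) was at 1.59, 1.67, 0.965 and 2.28 RPM in fed and 3.05, 6.40, 5.70 and 10.2 RPM in fasted libraries. Its mean was 3.89-fold higher (log2 fold change 1.96, SE 0.376, edgeR FDR 7.79e-04). That is 0.73 above the median of all genes, and the call was lost with TMM factors (0.87, SE 0.375, edgeR FDR 0.0687). Both genes were highest in fasted replicate 4, which had the highest muscle, pharynx and neuron sums. Without fasted replicates 1 and 4, hil-3 was at 4.16 (SE 0.495, edgeR FDR 1.40e-04) and hil-2 at 1.89 (SE 0.335, edgeR FDR 0.00128). The part of these tissues in the levels of hil-3 and hil-2 was not tested.

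**Figure D2:**
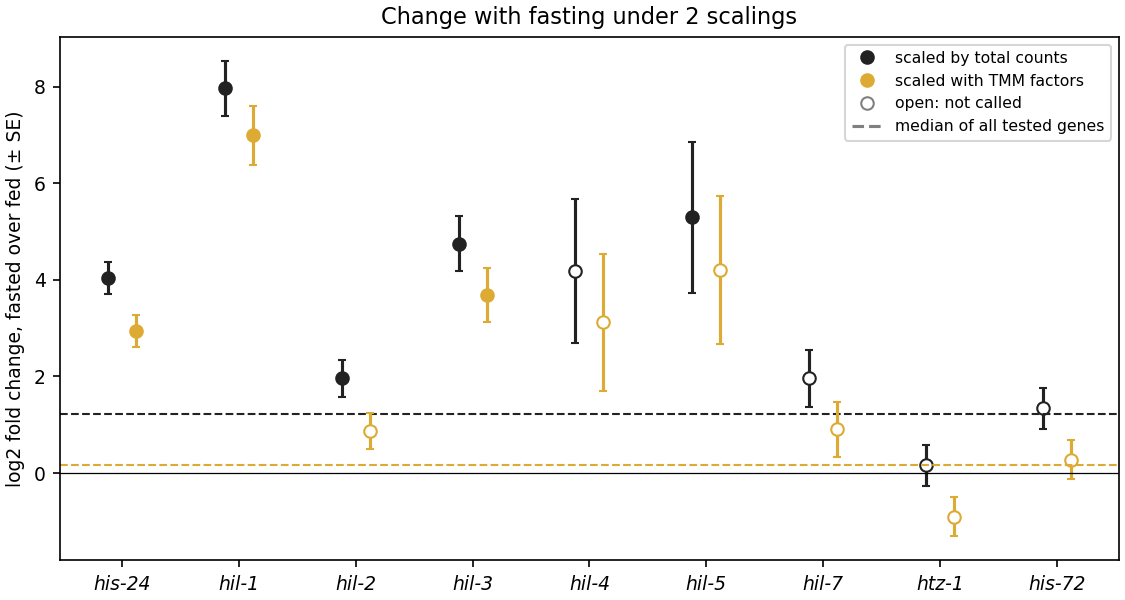
Log2 fold change of the 9 tested genes, fasted over fed, with its SE, by total counts (black) and with TMM factors (yellow); filled points were called and dashed lines mark the median of all tested genes. his-24, hil-1 and hil-3 were called under both scalings, and htz-1 lies below the median under both.

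hil-4 and hil-5 were high in 2 of the 4 fasted libraries and at fed levels in the others. hil-4 (WBGene00001855; chromosome V, 4754313 to 4755453, plus strand) stood at 7.88, 38.4, 0 and 0.709 RPM in fasted replicates 1 to 4, and at 0.986, 0.0954, 1.29 and 0.152 RPM in fed ones. hil-5 (WBGene00001856; chromosome I, 5774585 to 5775610, plus strand) stood at 6.93, 22.8, 0 and 0.414 RPM in the fasted libraries, and at 0, 0.382, 0.241 and 0.152 RPM in the fed ones. Both genes thus took their highest value in fasted replicate 2, the next in replicate 1, and a value of 0 in replicate 3, and the groups overlapped for both. The germline and oocyte markers were also highest in fasted replicate 2 (428 RPM) and next in replicate 1 (116 RPM), with all 19 markers above the floor in replicate 2, 18 in replicate 1, and 10 and 11 in replicates 3 and 4. In fed libraries hil-4 was highest in replicates 3 and 1, where the marker sums were 7.56 and 4.48 RPM, while hil-5 was highest in replicate 2 at 4.39 RPM of markers. The part of germline transcripts in the levels of hil-4 and hil-5 was not tested.

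By total counts hil-5 passed the threshold narrowly (log2 fold change 5.30, SE 1.56, edgeR FDR 0.00993) and hil-4 did not (4.19, SE 1.48, edgeR FDR 0.0245). With TMM factors neither was called (edgeR FDR 0.0370 for hil-5 and 0.0843 for hil-4). By total counts, DESeq2 did not call hil-5 either (5.29, SE 1.93, DESeq2 FDR 0.0112). Nor was it called with a filter of a mean of at least 10 counts (5.29, SE 1.68, edgeR FDR 0.0176). Fasted replicates 1 and 2 held the most germline signal and were also those in which both genes were high. Leaving them out, a choice made after seeing the data, was therefore bound to lower both values. It brought hil-5 to 0.14 (SE 1.37, edgeR FDR 0.929) and hil-4 to −0.81 (SE 1.31, edgeR FDR 0.597). Without fasted replicate 2 alone hil-5 was at 3.67 (edgeR FDR 0.0358) and hil-4 at 2.16 (edgeR FDR 0.145). hil-5 also lost its call without fasted replicate 1 (5.33, edgeR FDR 0.0170) and without any 1 of the fed libraries (edgeR FDR 0.0278 to 0.0381), although its log2 fold change stayed between 4.86 and 5.81 in those fits of fewer samples. hil-4 was called only without fasted replicate 3, among the fits that left out 1 library (4.60, edgeR FDR 0.00569).

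The remaining linker histone genes were hil-7, which was low in both groups, and hil-6, which was not detected. hil-7 (WBGene00001858; chromosome IV, 6646312 to 6646972, plus strand) was at 0.152, 0.191, 0.563 and 0.0758 RPM in fed and 0.985, 1.22, 0.4996 and 1.15 RPM in fasted libraries, which is at most 39 reads. Only fasted replicate 3 fell within the fed range, and the difference did not pass the threshold (log2 fold change 1.96, SE 0.594, edgeR FDR 0.0116). Without fed replicate 3 it did (2.77, edgeR FDR 0.00258). hil-6 (WBGene00001857; chromosome V, 2030507 to 2031554, minus strand) had 0 counts in all 8 libraries. A count of 0 allows up to 3 counts, or 0.143 RPM in the shallowest library, and no comparison was made.

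**Figure D3:**
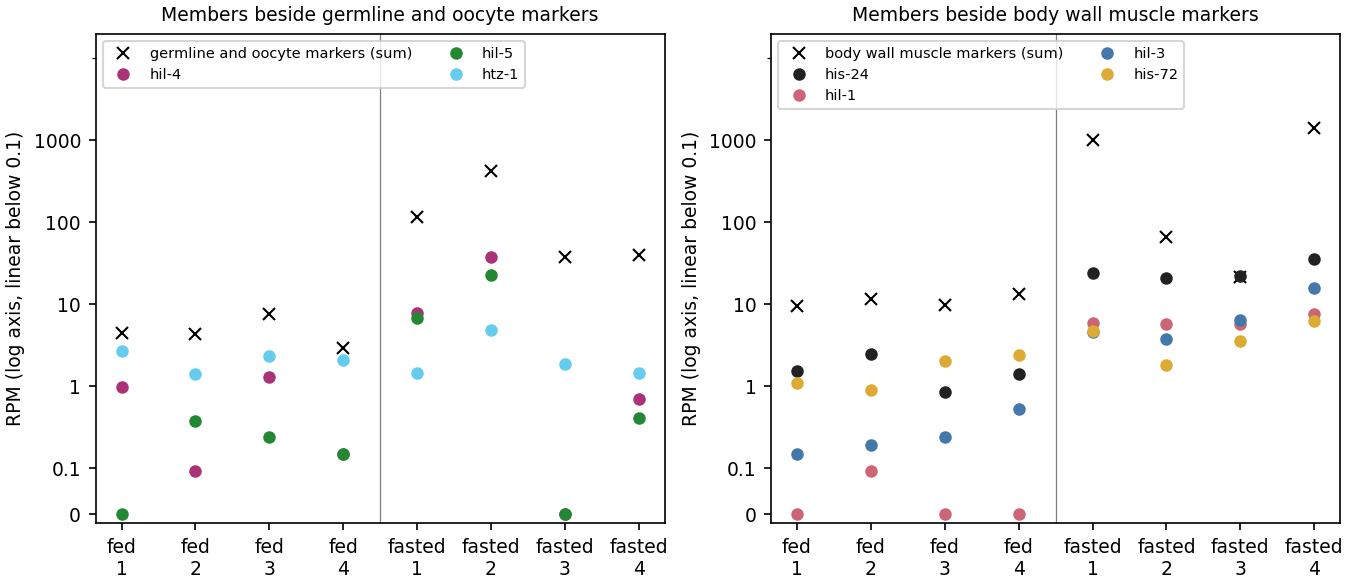
RPM of hil-4, hil-5 and htz-1 beside the summed germline and oocyte markers (left), and of his-24, hil-1, hil-3 and his-72 beside the summed body wall muscle markers (right), in each library, on log axes that are linear below 0.1. hil-4 and hil-5 are highest in fasted replicates 2 and 1, as the germline markers are (their points coincide in fed replicate 4 and fasted replicate 3). In the fasted libraries hil-1 lies between 5.73 and 7.74 RPM over muscle sums from 21.8 to 1415 RPM, and both are highest in replicate 4.

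The make-up of the linker histone transcripts differed between the groups. Levels of different genes were compared per exon length, as RPM divided by the exon length in kilobases (RPKM). his-24 made up 35.0%, 47.7%, 20.3% and 29.9% of the summed H1 RPKM in fed libraries and 44.7%, 21.4%, 54.1% and 49.2% in fasted ones, so that its share overlapped between the groups. hil-2 held 24.04% to 50.3% in fed and 5.93% to 14.5% in fasted libraries, and these ranges did not overlap. hil-1 held 0% to 1.84% in fed and 5.86% to 14.1% in fasted libraries. The mean share of hil-2 was thus 36.2% ± 10.9 in fed and 10.4% ± 4.65 in fasted libraries, and that of hil-1 was 0.460% ± 0.920 and 10.4% ± 3.40 (SD, n = 4). In fasted replicate 2, hil-4 and hil-5 together exceeded his-24, at 36.4% and 24.3% of the sum. These shares do not depend on how libraries are scaled to each other, and no test was run on them because they add up to a whole.

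**Figure D4:**
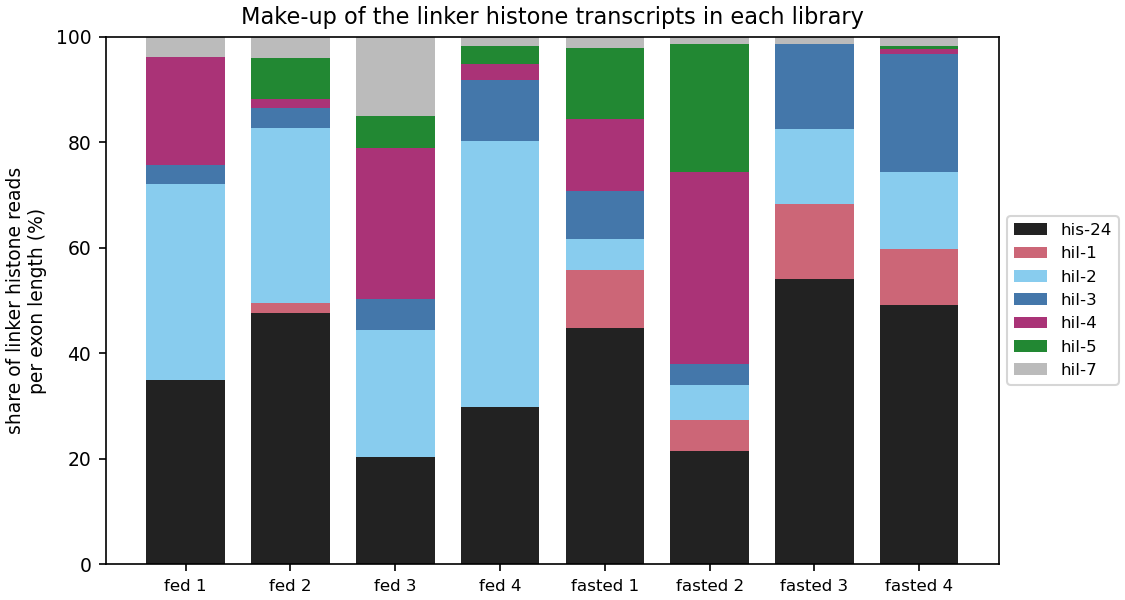
Share of each linker histone gene in the summed RPKM of the 8 genes, in percent, as stacked bars for each library (hil-6 is at 0). hil-2 takes 24.04% to 50.3% in the fed libraries and at most 14.5% in the fasted ones, and hil-4 and hil-5 fill most of fasted replicate 2.

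By mean RPKM, the order in fed intestines was his-72 (2.56 ± 1.16), htz-1 (2.27 ± 0.575), hil-2 (1.86 ± 0.613) and his-24 (1.73 ± 0.749), followed by hil-4, hil-3, hil-7, hil-5 and hil-1 at 0.646 RPKM or less (SD, n = 4). The ranges of all neighbours in this order overlapped. In fasted intestines his-24 came first at 28.5 ± 7.54 RPKM, higher than 96.7% of all genes in the table against 84.9% in fed. It was followed by hil-4 (12.0 ± 18.6), hil-3 (8.75 ± 6.34), hil-5 (8.69 ± 12.3), hil-2 (7.25 ± 3.36), hil-1 (6.96 ± 1.08) and his-72 (6.49 ± 2.99). htz-1 came next at 2.56 ± 1.76 RPKM and hil-7 at 1.18 ± 0.399 RPKM. The places of hil-4 and hil-5 rested on fasted replicate 2. Without it, a choice made after seeing the data, their means were 2.94 and 2.82 RPKM, below those of hil-3, his-72, hil-2 and hil-1 (7.17 to 10.2 RPKM). Over all 4 fasted libraries the ranges separated htz-1 from hil-7, and hil-7 from hil-6 at 0, and no other neighbours. The exon lengths in the table exceed the whole span of the gene in the later annotation for htz-1 (955 against 784 bp) and hil-7 (818 against 661 bp), so that their RPKM rests on an older gene model.

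htz-1 (WBGene00019947; chromosome IV, 4446216 to 4446999, plus strand) encodes the H2A.Z variant. Its transcripts were at 2.73, 1.43, 2.37 and 2.12 RPM in fed and 1.48, 4.94, 1.90 and 1.45 RPM in fasted libraries. The groups overlapped, and fasted replicate 2 stood alone above the fed range. No change was called (log2 fold change 0.16, SE 0.420, edgeR FDR 0.734), which is 1.07 below the median of all genes on the log2 scale. The sign rested on the scaling and on 1 library. With TMM factors the value was −0.91 (SE 0.406, edgeR FDR 0.0793, unadjusted P 0.0478), and without fasted replicate 2, the one with the most germline transcripts, it was −0.43 (SE 0.319, edgeR FDR 0.240). The part of those transcripts in the level of htz-1 was not tested.

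his-72 (WBGene00001946; chromosome III, 12367475 to 12369050, minus strand) encodes an H3.3 histone. It was at 1.10, 0.906, 2.05 and 2.43 RPM in fed and 4.76, 1.82, 3.56 and 6.29 RPM in fasted libraries. In all fasted libraries but replicate 2 it exceeded every fed library. The change did not pass the threshold (log2 fold change 1.34, SE 0.421, edgeR FDR 0.0140) and lay 0.11 above the median of all genes. It passed without fasted replicate 2 (1.58, SE 0.367, edgeR FDR 0.00323) and with DESeq2 on total counts (1.34, SE 0.459, DESeq2 FDR 0.00666). Without fasted replicates 1 and 4, with the most muscle transcripts, it was 0.73 (SE 0.481, edgeR FDR 0.207), and with TMM factors 0.27 (SE 0.402, edgeR FDR 0.591). The part of muscle transcripts in the level of his-72 was not tested.

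his-71, the other H3.3 gene that passed the filter, was called higher. It stood at 0.835, 0.191, 0.563 and 0.228 RPM in fed and 3.15, 1.86, 1.83 and 3.28 RPM in fasted libraries (log2 fold change 2.45, SE 0.478, edgeR FDR 8.51e-04), and it was not called with TMM factors (1.39, edgeR FDR 0.0229) or without fasted replicates 1 and 4, the libraries with the most muscle transcripts (1.998, SE 0.6005, edgeR FDR 0.0171). The part of muscle transcripts in the level of his-71 was not tested. his-71 and his-72 code for closely similar proteins, and reads that match both would not have been counted. Of the summed RPKM of both genes, his-72 held 55.4% to 91.0% in fed and 48.0% to 64.7% in fasted libraries, and these ranges overlapped. his-71 was the tested gene of a list of 6 other H3 variants, with a background of 52.9% of all genes called higher. his-69 and his-70 were at 0 in all libraries. hcp-3 and cpar-1, which encode variants of the centromere, and his-74 did not pass the filter. his-74 had at most 8 counts in any library. hcp-3 was at 0.0954 to 0.322 RPM in fed and 0.366 to 1.08 RPM in fasted libraries.

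Genes whose products place H2A.Z or belong to the related acetyltransferase complex were mostly called higher by total counts. With TMM factors they were called in both directions. Of a list of 9 such genes 8 were tested and 6 were called higher, beside 52.9% of all tested genes, and the median of 1.93 lay above that of all genes (1.23). With TMM factors 3 were called higher and 2 lower, beside 19.6% and 21.5% of all genes. ruvb-1 and ruvb-2, which encode AAA+ ATPases shared by several complexes, rose most. ruvb-1 went from 2.20 ± 0.701 to 25.7 ± 4.74 RPM (SD, n = 4), a log2 difference of 3.55 with SE 0.252 (edgeR FDR 8.21e-07). ruvb-2 changed by 3.65 (SE 0.352, edgeR FDR 6.32e-06). trr-1, the TRRAP gene, rose by 2.21 and kept its call with TMM factors (1.14, edgeR FDR 0.00228), as both ruvb genes did. ssl-1, the gene of the remodelling ATPase of the SWR1 family, changed by 1.65 by total counts (edgeR FDR 2.82e-04). ekl-4 (2.59) and zhit-1 (1.502) were also called, and with ssl-1 they were not called with TMM factors. The acetyltransferase gene mys-1 (−0.37, SE 0.398) and its partner epc-1 (−0.36, SE 0.1797) were not called by total counts and were called lower with TMM factors (−1.43 and −1.44). gfl-1 was too low to be tested. The later annotation places other protein-coding genes over exons of mys-1, epc-1, ekl-4, zhit-1 and ruvb-2, so that their counts are less certain.

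Histone chaperones, which escort histones to and from DNA, were mostly called higher by total counts. Of 13 genes 12 were tested and 10 were called, beside 52.9% of all tested genes. With TMM factors 4 kept their call (chaf-2, rba-1, lin-53 and nap-1), beside 19.6%. Without fasted replicates 1 and 2, with the most germline transcripts, 6 were called by total counts (these 4, xnp-1 and spt-16), and the part of germline transcripts was not tested. The list median was 1.68, against 1.23 for all genes. Within the list, chaf-2 and unc-85 passed the filter through their fasted counts alone. nap-1, which encodes a chaperone of H2A and H2B, was at 9.94, 6.77, 11.1 and 8.04 RPM in fed and at 262, 178, 198 and 209 RPM in fasted libraries (log2 fold change 4.56, SE 0.207, edgeR FDR 5.02e-08, or 3.49 with TMM factors). Its lowest fasted library was far above its highest fed one. rba-1 (2.37) and lin-53 (2.07), which encode proteins of the RbAp46/48 family, rose with small spread, lin-53 from 0.790 ± 0.0946 to 3.32 ± 0.530 RPM (SD, n = 4). chaf-2, a subunit gene of the assembly factor CAF-1, was at the floor in fed libraries. By total counts it was at least 6.21-fold higher in fasted ones, and its fitted fold change was smaller with TMM factors. The other subunit gene chaf-1 changed by 0.79 (SE 0.818) and was not called. The H3.3 chaperone genes hira-1 (1.64, edgeR FDR 0.00201) and xnp-1 (1.02, edgeR FDR 6.14e-04) were called by total counts and were at 0.58 and −0.05 with TMM factors. The ASF1 gene unc-85 (4.03, edgeR FDR 0.00261) had 5 reads or fewer in any fed library. spr-2 (1.62), hmg-4 (1.25) and spt-16 (1.64) were called by total counts alone, and hmg-3 (1.72, edgeR FDR 0.0147) was not called. Other protein-coding genes lie over exons of hira-1 and hmg-3 in the later annotation. asfl-1 did not pass the filter.

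Most core histone genes gave almost no reads in these poly(A) libraries. Of 64 genes named his-1 to his-68 other than his-24, 36 had 0 counts in all libraries, 45 had at most 3 in any, and 6 passed the filter. All 6 were called higher by total counts, beside 52.9% of all tested genes, with a median log2 fold change of 2.78 against 1.23 for all genes. With TMM factors 4 were called, beside 19.6%. Of these genes, his-61, his-62 and WBGene00001899 were low in fed libraries and passed the filter mainly through their fasted counts. That favours calls of higher and raises the list median. his-37, an H4 gene, was the most abundant of them per length, at 57.4 ± 15.7 RPKM in fed and 288 ± 75.6 RPKM in fasted libraries (SD, n = 4), a log2 difference of 2.33 with SE 0.245 (edgeR FDR 1.22e-05). Both its RPKM and that of the H2B gene his-41 (36.9 ± 7.99 in fed and 100.3 ± 29.0 in fasted libraries) were above those of every linker histone gene in the same group. his-41 changed by 1.44 (edgeR FDR 2.24e-04) and was not called with TMM factors (0.36). his-35, an H2A gene, rose by 2.66 (SE 0.389, edgeR FDR 1.24e-04). his-61 rose by 4.30 and kept its call with TMM factors, whereas his-62 (2.91) lost it. WBGene00001899, whose symbol his-9 the later annotation shares among several near-identical copies, rose from 0.287 ± 0.319 to 10.6 ± 2.16 RPM (SD, n = 4), a log2 difference of 5.26 with SE 0.522 (edgeR FDR 7.79e-06). Counts of core histone genes are uncertain because reads that match several copies were left out, and other protein-coding genes lie over exons of his-37 and his-41 in the later annotation.

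**Figure D5:**
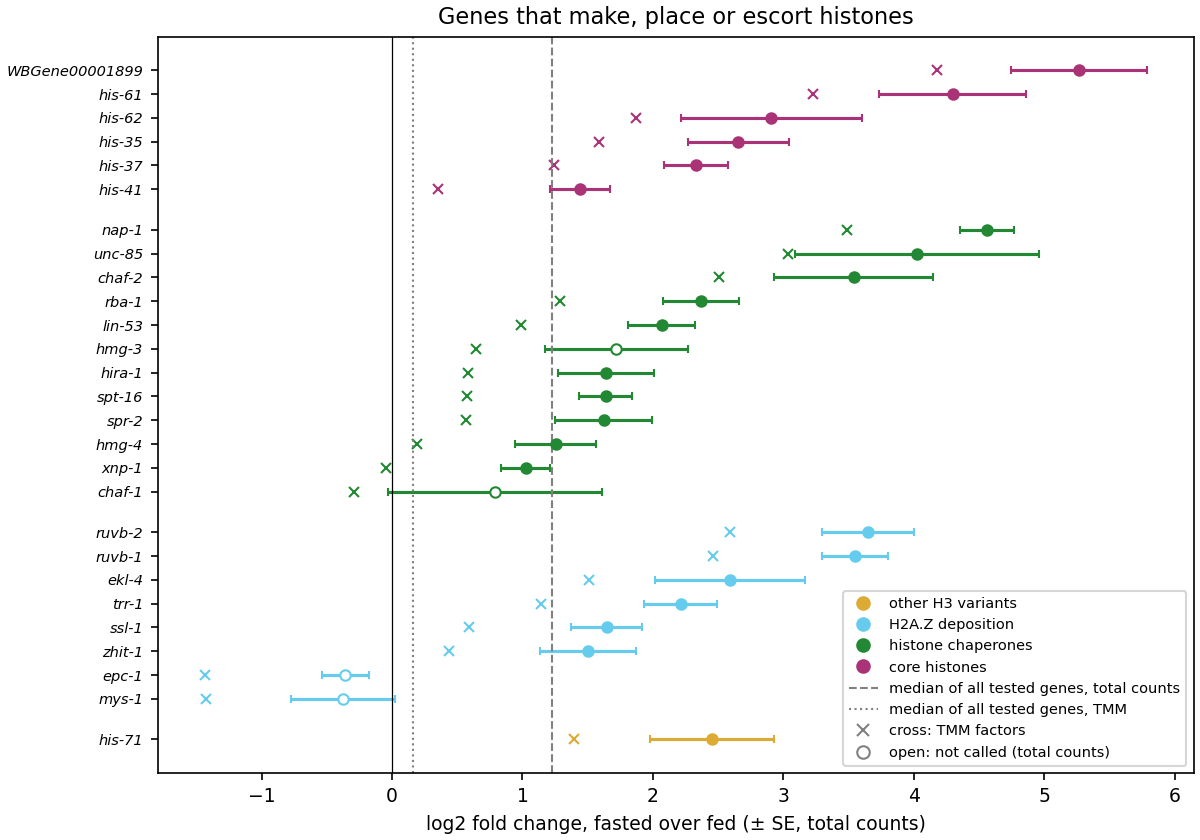
Log2 fold change of the tested genes of 4 lists, fasted over fed, by total counts with its SE (points, filled where called) and with TMM factors (crosses); vertical lines mark no change and the median of all tested genes under each scaling. nap-1 stands at 4.56 and 3.49, and mys-1 and epc-1 lie below 0 under both scalings.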

How the data were processed

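Poly(A) RNA of dissected intestines was measured in 4 fed and 4 fasted libraries. Per the study's methods, the authors trimmed adaptors with Trimmomatic, aligned reads to ce10 with the spliced mode of QuasR, kept unique reads, and deposited raw counts of reads over WormBase exons in the sense orientation. The kit is not stated to keep the strand. The deposited table also lists a summed exon length per gene. Symbols and positions came from Ensembl release 115 (WBcel235), a later build, with no conversion of coordinates; 522 of 20392 identifiers were not in it. Value columns that matched no sample numbered 0.

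edgeR 4.0.16 in R 4.3.3 (glmQLFit, glmQLFTest) was fitted on the whole table with the group as its term and total counts as library size, after filterByExpr (minimum count 10, minimum total 15). Benjamini-Hochberg adjustment covered all 7379 tested genes. SE was the log2 fold change divided by the root of its F statistic. The code was checked on simulated counts. Alternatives were TMM and RLE factors, library sizes without vitellogenins, other filters and thresholds, DESeq2 1.42.0, a replicate block, and fits without single libraries or pairs of them. The exact permutation test planned for those of the 10 genes below the filter gave no value, because hil-6 was the one such gene and had no counts. The genes named are the 10 chosen by name and the called genes of the lists, with uncalled ones given as values. The members and lists were chosen with earlier results of these data known. The fit without fasted replicates 1 and 2 was chosen after seeing the data, as was the order of levels without fasted replicate 2. P values weigh the difference between the groups against the spread of these libraries within a group, and floors cover counting error only. PCR duplicates were not told apart. Every pair of libraries differed by more than counting noise (chi-square per gene at least 15.1).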

Additional observations from a re-analysis of the deposited data

Results flagged for a closer look

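Within each group of 4 libraries, a library was singled out when its gap to the nearest other library exceeded the share of the group's range that is the critical value of Dixon's test. This was so in 8 of 64 groups looked at. Chance gives about 1 in 20 for normally distributed values, a rate that does not hold for groups of few counts. A group with 1 library above 0 and the others at 0, as for hil-1 and unc-85 in fed, is always singled out. Of the linker histone and variant genes, hil-1 stood at 0.0954 RPM in fed replicate 2, which is 2 counts against 0 in the others, and at 7.74 RPM in fasted replicate 4 against 5.73 to 5.88 RPM. htz-1 stood at 4.94 RPM in fasted replicate 2 against 1.45 to 1.90 RPM. Of the listed genes, unc-85 was at 0.201 RPM in fed replicate 3 against 0, spt-16 at 18.1 RPM in fasted replicate 2 against 15.3 to 15.6 RPM, his-35 at 4.17 RPM in fed replicate 1 against 1.34 to 1.74 RPM, his-61 at 0.303 RPM in fed replicate 4 against 0.0759 to 0.0954 RPM, and WBGene00001899 at 0.763 RPM in fed replicate 2 against 0.0805 to 0.152 RPM.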

How the results depend on the processing

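By total counts 5 of the 10 genes were called higher. The number was 3 with TMM factors, with RLE factors, with DESeq2's own size factors and with a replicate block plus TMM factors, and 8 at an FDR under 0.05 with no minimum fold change. Leaving out 1 library gave 4 to 6 higher and 0 lower. Over all genes 3901 were called higher and 736 lower, against 1448 and 1585 with TMM factors, 1445 and 1601 with RLE factors, 1828 and 1736 with DESeq2's own size factors, and 1316 and 1502 with the block plus TMM factors. Of the calls, 84.1% were higher by total counts and 47.7% with TMM factors. The value of htz-1 turned negative with TMM factors (−0.91), RLE factors (−0.91), library sizes without vitellogenins (−0.10), DESeq2's own size factors (−0.90), the block (−0.027) and the block plus TMM factors (−1.09), and without fasted replicates 1 and 2 (−0.38), and leaving out 1 library gave −0.43 to 0.35. hil-4 was at −0.81 without fasted replicates 1 and 2. Of the other H3 variants 0 were called with TMM factors, RLE factors, DESeq2's own size factors, the block plus TMM factors, and without fasted replicates 1 and 4, and 2 were called by DESeq2 with total counts (1 to 2 without 1 library). Of the H2A.Z deposition genes 3 were called higher under each of the settings that gave 3 of the 10 genes. Under these settings epc-1 was called lower, and so was mys-1 except with the block plus TMM factors. With library sizes without vitellogenins epc-1 was also called lower (−0.62, edgeR FDR 0.00850). Of the chaperones 4 were called higher with TMM and RLE factors, 3 with DESeq2's own size factors, 2 with the block plus TMM factors and 6 without fasted replicates 1 and 2. The cause was not tested. Per the study's methods, part of the collected adults was dissected as fed and the rest was fasted, so that libraries may share a collection. Replicate numbers were not taken to pair the samples, since no source says that a number marks a shared collection. The study does plot fold changes of fasted over fed separately for 2 replicas. Same-numbered libraries deviated together with correlations of 0.0404, 0.0860, 0.0675 and 0.148, and differently numbered ones with −0.160 to 0.132. With the replicate block 5 of the 10 genes, 3576 genes in all higher and 693 lower were called. With it his-72 passed (1.32, SE 0.299, edgeR FDR 0.00426) while hil-5 did not. Low counts limit hil-6, hil-7 and the fed values of hil-1, hil-3 and hil-5.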
